A study of Mus musculus with 4 samples.

Results

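Transforming growth factor beta (TGF-beta) signalling was examined in muscle stem cells of young and aged mice through 10 genes: the ligands Tgfb1, Tgfb2 and Tgfb3, the receptors Tgfbr1, Tgfbr2 and Tgfbr3, the receptor-regulated SMADs Smad2 and Smad3, the common SMAD Smad4 and the inhibitory SMAD Smad7. They were chosen by name, and all probe sets that the platform annotation maps to 1 of them and to no other gene were taken. This gave 25 of 45037 probe sets, and 10 of 18193 named genes. A probe set is a group of short array probes that report on a transcript or a set of transcripts. The arrays held RNA of satellite cells, the stem cells that lie under the basement membrane of muscle fibres and repair them. The cells came from hindlimb muscle of C57BL/6J mice and were sorted as primary cells for the surface proteoglycan syndecan-4; the labels name no treatment and no transgene. The young group was 3 to 6 months of age and the aged group 20 to 25 months. Each of the 4 arrays held 1 pool of mice, with 2 pools per age, called young 1, young 2, aged 1 and aged 2 after the numbers in their labels. A pool held 4 to 8 mice by the series text, or 6 to 8 by the sample text, and hides how the mice within it differed.

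TGF-beta ligands are secreted in a latent form, held inactive by their own propeptide and by latent TGF-beta binding proteins until integrins or proteases release them. The free ligand brings the type II receptor (Tgfbr2) and the type I receptor kinase (Tgfbr1) together, often helped by the coreceptor betaglycan (Tgfbr3). Tgfbr1 then phosphorylates Smad2 and Smad3, which enter the nucleus with Smad4 and act on target genes. Smad7 is induced by the pathway and blocks the receptor in a feedback loop. In muscle the pathway is known as a brake on myoblast differentiation and fusion and as a driver of fibrosis.

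Values are taken as log2 (no label gives the base) and are centred on the 4-array median of the probe set. They show which array is high or low for a probe set but not how abundant a transcript is, so no order of levels among the 10 genes can be given. A difference is the mean of the aged pools minus the mean of the young pools on the log2 scale, and ± is its standard error in a limma fit over all probe sets or over all genes (2 pools per age). A gene's value is the mean of its probe sets. Adjusted p-values are by Benjamini-Hochberg over the same fit, with a threshold of 0.05. With 2 pools against 2, an exact permutation test could not go below a two-sided p of 0.333. The labels do not say that pools of the same number were handled together, and the differences within number 1 and within number 2 are given as separate readings.

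Neither the 25 member probe sets nor the 10 genes gave a call. With limma, 0 of 25 and 0 of 10 passed the adjusted threshold, where 0% of all probe sets and 0% of all genes passed. At an unadjusted p under 0.05 stood 2 of the 25 probe sets, both higher in aged cells, where 2.59% of all probe sets were higher at that p and 4.71% lower. Of the genes, 0 of 10 reached that p in limma, where 2.85% of all genes were higher and 6.19% lower. The member probe sets were split, with 11 higher and 14 lower in aged cells. Their median difference was -0.29, beside 0.06 over all probe sets, and the median of the 10 genes was -0.0016, beside 0.05 over all genes. The median turned with the number, at -0.10 within number 1 and 0.37 within number 2 over the probe sets and at -0.53 and 0.37 over the genes. The ages did not overlap in 6 member probe sets with aged higher and in 3 with aged lower, where the shares over all probe sets were 19.0% and 14.8%. Of the genes, 2 were apart with aged higher and 2 with aged lower, where the shares over all genes were 19.9% and 16.9%. Pools of the same age lay far from each other at these probe sets. Young 1 and young 2 differed by a median of 0.71 over the member probe sets and aged 1 and aged 2 by 1.10, beside 0.54 and 0.57 over all probe sets.

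**Figure D1:**
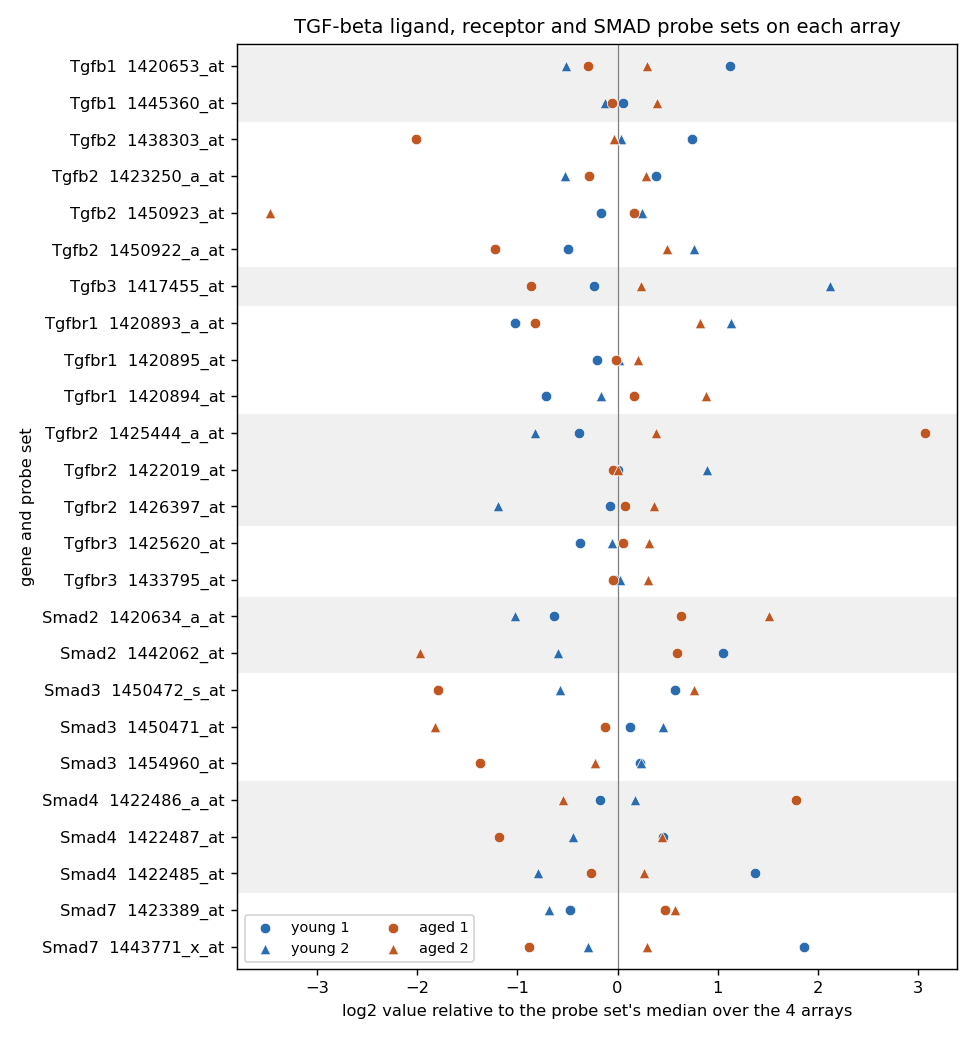
Each row is 1 of the 25 member probe sets, and the points are the log2 values of the 4 arrays relative to that probe set's median (blue young, orange aged, circles pools numbered 1, triangles pools numbered 2). In 9 rows, such as Smad2 1420634_a_at and Smad7 1423389_at, the colours do not overlap, and several wide rows are set by a single pool, such as aged 2 at -3.47 for Tgfb2 1450923_at.

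In bulk RNA such as this, fewer cells of a type and less RNA per cell cannot be told apart, and other cell types can add to a pool. The mean over 12 muscle fibre markers was 1.48 and 1.28 in young 1 and young 2 and -1.47 and -1.50 in aged 1 and aged 2, with 12 of 12 lower in aged cells. The 8 macrophage markers had means of 0.60 and 0.46 in young and -0.91 and -0.46 in aged pools, with 7 of 8 lower. The 8 endothelial markers had 0.23 and 0.19 against -0.27 and -0.77, also with 7 of 8 lower. The ages were apart with aged lower in 5 macrophage but only 2 endothelial markers (16.9% over all genes). Of the endothelial markers, 2 of 8 had the same sign in both numbers, beside 56.1% of all genes. Pericyte and smooth muscle markers went the other way, at -0.42 and -0.56 in young and 0.87 and 0.56 in aged pools, with 8 of 8 higher. Fibro-adipogenic progenitor markers (7 of 8 higher) stood at -0.48 and -0.45 in young and 0.77 and 0.41 in aged pools. The 1 that was not higher was Pdgfra, at a difference of -0.05 ± 0.36 with overlapping ages. T cell markers (6 of 6 higher) stood at -0.65 and -1.06 against 1.30 and 0.59. The ages were apart with aged higher in 6 pericyte, 4 progenitor and 4 T cell markers (19.9% over all genes). Of the progenitor markers, 4 of 8 had the same sign in both numbers. The 4 platelet markers stood at -0.04 and -0.36 in young and 0.01 and 0.25 in aged pools, and all 4 overlapped between the ages. The satellite cell list stood at -0.21 and -0.23 in young and 0.12 and 0.39 in aged pools, with 6 of 11 higher and a median difference of 0.0021. Des, Cd34, Vcam1, Cxcr4 and Sdc3 of this list were lower, named after their values were seen. The ages were apart with aged higher in 4 of the 11 and with aged lower in 1, Des (-0.88). The shares over all genes were 19.9% and 16.9%. Pax7, the transcription factor that marks satellite cells, was at -1.39, -1.24, 1.08 and 0.90 in young 1, young 2, aged 1 and aged 2. Sdc4, the syndecan used for the sort, was at -0.18, -1.47, 0.38 and 0.41. Since the values are relative, they do not show whether any marker was at or near 0 in a pool. The part of these cell types in the differences of TGF-beta genes was not tested.

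**Figure D2:**
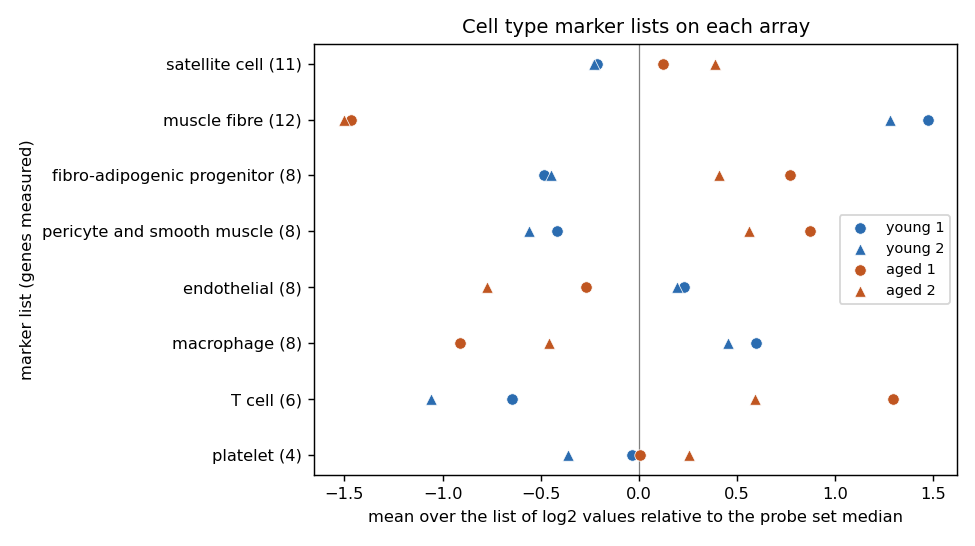
Each row is a cell type marker list with the number of genes measured, and the points are the mean log2 value of the list on each array, relative to the probe set medians (blue young, orange aged, circles pools numbered 1, triangles pools numbered 2). The fibre list is at 1.28 or above in both young pools and at -1.47 or below in both aged pools, while the pericyte, progenitor and T cell lists lie the other way.

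The 3 genes with the smallest unadjusted p of the 10 were Tgfb2, Smad3 and Tgfbr2. Their promoters are shown because SMAD3 and SMAD4 bind the letters CAGAC, so that genes of the pathway can themselves be its targets. The 250 bases before each gene's start are given 5′ to 3′ on the gene's strand, from RefSeq on GRCm38.p6, with CAGAC and its reverse complement GTCTG in capitals. The Tgfb2 stretch is chr1:186705990-186706239, the Smad3 stretch chr9:63757995-63758244 and the Tgfbr2 stretch chr9:116175364-116175613, all on the minus strand.
Tgfb2: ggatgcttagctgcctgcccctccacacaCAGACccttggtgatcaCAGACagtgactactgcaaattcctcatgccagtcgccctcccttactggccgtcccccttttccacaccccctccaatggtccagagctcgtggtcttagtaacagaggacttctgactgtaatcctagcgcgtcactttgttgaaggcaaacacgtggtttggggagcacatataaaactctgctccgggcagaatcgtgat
Smad3: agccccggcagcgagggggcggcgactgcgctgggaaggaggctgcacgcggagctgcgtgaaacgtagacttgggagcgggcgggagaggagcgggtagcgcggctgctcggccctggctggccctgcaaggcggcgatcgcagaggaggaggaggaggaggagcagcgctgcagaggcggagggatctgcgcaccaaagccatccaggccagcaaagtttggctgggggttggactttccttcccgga
Tgfbr2: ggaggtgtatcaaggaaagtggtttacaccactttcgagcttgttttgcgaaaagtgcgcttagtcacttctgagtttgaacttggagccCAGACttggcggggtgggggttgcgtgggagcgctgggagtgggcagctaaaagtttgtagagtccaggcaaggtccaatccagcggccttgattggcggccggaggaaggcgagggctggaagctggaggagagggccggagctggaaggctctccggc
The search on both strands found 2 matches in Tgfb2, 0 in Smad3 and 1 in Tgfbr2. Of 32851 RefSeq promoters, 42.2% held at least 1 match in 250 bases, so a match is common and describes the letters only. The GC content was 53.6% for Tgfb2, 69.2% for Smad3 and 58.4% for Tgfbr2, beside a median of 52.4% over the table.

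Among the ligands, Tgfb2 and Tgfb3 lay lower in aged cells without passing the test, and Tgfb1 stood near 0. Tgfb2, a ligand best known from heart and skeletal development, was at 0.12 and 0.13 in young 1 and young 2 and at -0.84 and -0.68 in aged 1 and aged 2, as the mean of its 4 probe sets. The ages did not overlap, and the gap was 0.01 between the young and 0.15 between the aged pools. The difference was -0.88 ± 0.36, 1.84-fold lower, with an adjusted p of 0.557 in limma and a 95% interval from -1.77 to 0.01. It was -0.95 within number 1 and -0.81 within number 2.

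The even values of Tgfb2 came from probe sets that differed among themselves. Probe set 1438303_at was at 0.74 and 0.03 in young and -2.01 and -0.03 in aged pools, so that aged 1 was far down and aged 2 lay 0.07 below young 2. Probe set 1450923_at was at -0.16 and 0.24 in young and 0.16 and -3.47 in aged pools, with aged 2 far down. The low values of these probe sets fell in different aged pools and evened out in the mean. Probe set 1450922_a_at was at -0.50, 0.77, -1.22 and 0.50 in young 1, young 2, aged 1 and aged 2, with overlapping ages. Probe set 1423250_a_at was at 0.38, -0.52, -0.28 and 0.28, also with overlapping ages. The annotation gives the same source sequence for 1423250_a_at, 1450922_a_at and 1450923_at. The differences ran from -1.70 ± 1.25 for 1450923_at, over -1.41 ± 0.79 for 1438303_at and -0.50 ± 0.79 for 1450922_a_at, to 0.07 ± 0.52 for 1423250_a_at. Without aged replicate 2 the difference of 1450923_at was 0.12, and without aged replicate 1 it was -3.51.

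Tgfb3, a ligand known from palate and lung development, had 1 probe set, at -0.24 in young 1, 2.13 in young 2, -0.87 in aged 1 and 0.24 in aged 2. Young 2 stood far above the other arrays, and young 1 lay between the aged pools. The difference was -1.26 ± 0.86 in the fit over genes (adjusted p = 0.804 in limma, 95% interval -3.40 to 0.89). It was -0.63 within number 1 and -1.89 within number 2. Without young replicate 2 the difference was -0.08, and without young replicate 1 it was -2.44.

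Tgfb1, the most widely made of the ligands and the form stored in platelets, was at 0.59, -0.32, -0.17 and 0.34 in young 1, young 2, aged 1 and aged 2. The ages overlapped and the young pools were the extremes. The difference was -0.05 ± 0.47 (adjusted p = 0.991 in limma), with a 95% interval from -1.23 to 1.13 that holds sizeable differences either way. The sign turned with the number, at -0.76 within number 1 and 0.66 within number 2. Probe set 1420653_at was at 1.12, -0.51, -0.29 and 0.29, with young 1 highest. Probe set 1445360_at was at 0.05, -0.13, -0.05 and 0.40, with aged 2 highest and the other arrays close to each other. Without young replicate 1 the gene's difference was 0.41 and without young replicate 2 it was -0.50.

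The receptors lay higher in aged cells in 3 of 3 genes, none past the test. Tgfbr2, the type II receptor that binds the ligand first, was at -0.15 and -0.37 in the young pools and 1.03 and 0.25 in the aged pools. Both aged pools were above both young pools, with aged 1 highest. The difference was 0.90 ± 0.43, 1.87-fold higher, with an adjusted p of 0.638 in limma and a 95% interval from -0.17 to 1.98. It was 1.19 within number 1 and 0.62 within number 2.

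Probe sets of Tgfbr2 pointed both ways. Probe set 1425444_a_at was at -0.39 and -0.82 in young 1 and young 2, 3.07 in aged 1 and 0.39 in aged 2. Its difference, 2.34 ± 0.97, was the largest in size of the 25 (adjusted p = 0.73 in limma), and aged 1 alone stood far up. By Affymetrix naming, the ending _a_at marks probes that match several transcripts of the same gene. Probe set 1426397_at was at -0.07 and -1.20 in young and 0.07 and 0.36 in aged pools, with the ages apart by a narrow margin and a difference of 0.85 ± 0.54. Probe set 1422019_at was at 0.00, 0.90, -0.05 and 0.00 in young 1, young 2, aged 1 and aged 2, with a difference of -0.47 ± 0.48. Its values in young 1 and aged 2 were equal, as happened on at least 2 arrays for 5.0% of all probe sets. Without aged replicate 1 the difference of 1425444_a_at was 0.99, and without aged replicate 2 it was 3.68.

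Tgfbr1, the type I receptor kinase that phosphorylates Smad2 and Smad3, was at -0.65, 0.33, -0.22 and 0.64 in young 1, young 2, aged 1 and aged 2. Pools numbered 2 were above pools numbered 1 at both ages, and the ages overlapped. The difference was 0.37 ± 0.53 (adjusted p = 0.924 in limma), 0.42 within number 1 and 0.31 within number 2. Of its probe sets, 1420894_at alone had the ages apart, at -0.72 and -0.16 in young and 0.16 and 0.89 in aged pools, a difference of 0.96 ± 0.49. Probe set 1420893_a_at carried most of the gap between the numbers, at -1.03, 1.13, -0.82 and 0.82, and gave a difference of -0.05 ± 0.97. Probe set 1420895_at was nearly flat, at -0.20, 0.01, -0.01 and 0.20, and the annotation gives the same source sequence for all 3. Without young replicate 1 the gene's difference was -0.12, without aged replicate 2 it was -0.06, and without young replicate 2 it was 0.85.

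Tgfbr3, betaglycan, presents ligands to Tgfbr2 and is needed most for Tgfb2. It was at -0.20 and -0.01 in the young pools and 0.0033 and 0.31 in the aged pools. The ages were apart, but young 2 and aged 1 were nearly equal. The difference was 0.26 ± 0.37 (adjusted p = 0.922 in limma, 95% interval -0.66 to 1.19), 0.20 within number 1 and 0.32 within number 2. Tgfbr3 and Smad3 were the genes with more than 1 probe set whose probe sets all had the same sign. Probe set 1425620_at was at -0.37, -0.05, 0.05 and 0.32 and 1433795_at at -0.03, 0.03, -0.04 and 0.30 in young 1, young 2, aged 1 and aged 2.

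Within numbers, 7 of the 10 genes had the same sign in both, as had 56.1% of all genes. The exceptions were Tgfb1, Smad4 and Smad7, which were lower in aged cells within number 1 and higher within number 2.

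**Figure D3:**
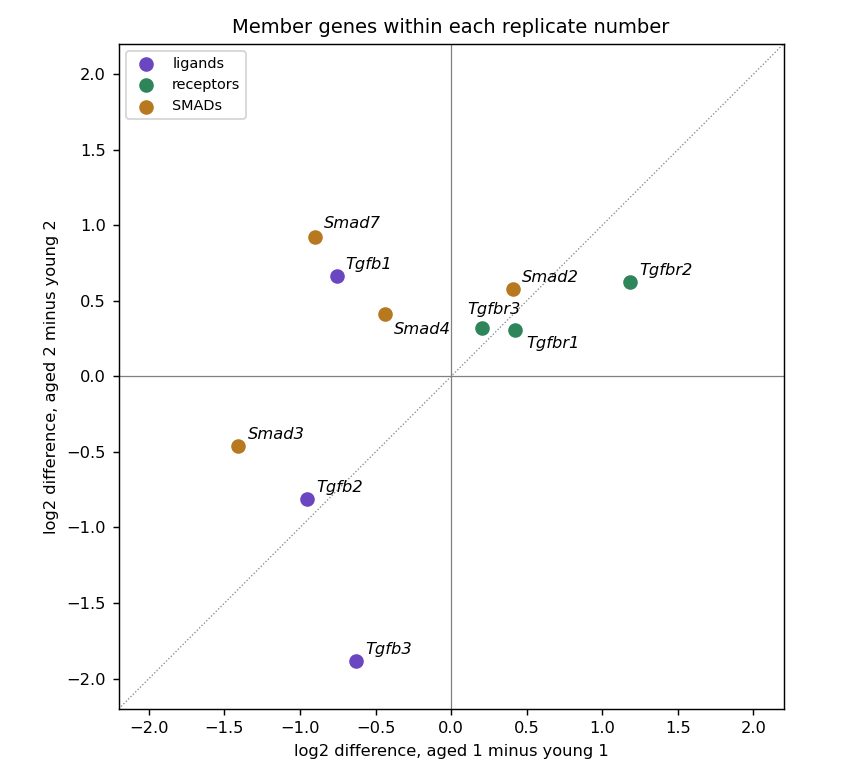
Each point is 1 of the 10 genes, with the log2 difference aged 1 minus young 1 on the x axis and aged 2 minus young 2 on the y axis; the dotted line marks equal differences. The receptors and Smad2 lie in the upper right, Tgfb2, Tgfb3 and Smad3 in the lower left, and Tgfb1, Smad4 and Smad7 in the upper left.

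Among the SMADs, Smad3 lay lower in aged cells on all of its probe sets, while Smad2 had probe sets of opposite sign. Smad3, which binds DNA and carries much of the transcriptional output of the pathway, was at 0.31 and 0.04 in young 1 and young 2 and -1.10 and -0.43 in aged 1 and aged 2. The ages were apart, with aged 1 lowest. The difference was -0.94 ± 0.42, 1.91-fold lower, with an adjusted p of 0.608 in limma and a 95% interval from -1.97 to 0.10. It was -1.41 within number 1 and -0.46 within number 2, and without aged replicate 1 it was -0.60.

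The Smad3 probe sets shared a direction but not the pool that was lowest. Probe set 1454960_at was at 0.22 and 0.24 in young and -1.38 and -0.22 in aged pools (difference -1.03 ± 0.54). Probe set 1450471_at was at 0.13 and 0.45 in young and -0.13 and -1.82 in aged pools (-1.27 ± 0.68). Aged 1 was thus lowest on the first and aged 2 on the second, and the ages were apart on both. Probe set 1450472_s_at was at 0.58, -0.58, -1.79 and 0.77, with overlapping ages and a difference of -0.51 ± 0.99. The annotation gives it the same source sequence as 1450471_at. By Affymetrix naming, the ending _s_at marks probes that can match transcripts of more than 1 gene, so this reading is the least certain. Without it, Smad3 stood at -1.15 (unadjusted p = 0.0238, adjusted p = 0.446 in limma).

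Smad2, the other receptor-regulated SMAD, was at 0.21 and -0.81 in the young pools and 0.62 and -0.23 in the aged pools. The ages overlapped, and the difference was 0.49 ± 0.53 (adjusted p = 0.893 in limma), 0.41 within number 1 and 0.58 within number 2. Probe set 1420634_a_at was at -0.64 and -1.02 in young and 0.64 and 1.51 in aged pools. Both aged pools were well above both young pools. Its difference of 1.91 ± 0.49, 3.75-fold higher, had the smallest unadjusted p of the 25 (0.0134, adjusted p = 0.46 in limma) and a 95% interval from 0.61 to 3.20. Probe set 1442062_at was at 1.06, -0.59, 0.59 and -1.98 in young 1, young 2, aged 1 and aged 2. It was higher in pools numbered 1 than in pools numbered 2 at both ages, and its difference was -0.92 ± 1.07.

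Smad4, the partner that Smad2 and Smad3 share with the SMADs of bone morphogenetic protein signalling, was at 0.55, -0.36, 0.11 and 0.06 in young 1, young 2, aged 1 and aged 2. The young pools enclosed the aged pools. The difference was -0.01 ± 0.45 (adjusted p = 1.0 in limma, 95% interval -1.13 to 1.10), -0.44 within number 1 and 0.41 within number 2. Probe set 1422486_a_at was at -0.17, 0.17, 1.79 and -0.54, with aged 1 high. Probe set 1422487_at was at 0.46, -0.44, -1.18 and 0.44, with aged 1 low. The same array was thus highest on 1 probe set of Smad4 and lowest on another. The annotation gives the same source sequence for all 3 Smad4 probe sets. Probe set 1422485_at was at 1.38, -0.80, -0.26 and 0.26, with young 1 high. Their differences were 0.62 ± 0.86, -0.38 ± 0.72 and -0.29 ± 0.82.

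Smad7, the feedback inhibitor, gave the second unadjusted p under 0.05. Probe set 1423389_at was at -0.47 and -0.69 in young 1 and young 2 and 0.47 and 0.58 in aged 1 and aged 2. Pools of the same age were close, the ages were apart, and the difference was 1.10 ± 0.39, 2.15-fold higher (unadjusted p = 0.0403, adjusted p = 0.651 in limma). It was 0.94 within number 1 and 1.26 within number 2, and with the replicate block the unadjusted p was 0.0539. Probe set 1443771_x_at was at 1.86, -0.29, -0.88 and 0.29 in young 1, young 2, aged 1 and aged 2, with young 1 far up and a difference of -1.08 ± 0.89. The ending _x_at marks probes that can bind unrelated transcripts. The mean of these opposite readings put the gene at 0.01 ± 0.54 (adjusted p = 1.0 in limma), with -0.90 within number 1 and 0.92 within number 2. Without the _x_at probe set, the gene value of Smad7 is 1423389_at alone, at 1.10 again. The limma fit over genes gave it an unadjusted p of 0.0262 (adjusted p = 0.462). That is the same reading in another fit and adds no second one.

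Disagreement between probe sets was common in the family and over the array. Of 9 member genes with more than 1 probe set, 7 had probe sets of both signs (77.8%), beside 57.8% of 9010 such genes on the array. These shares were not matched for the number of probe sets per gene, and no test was made of them.

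The rest of the pathway was described through 6 lists chosen by role. With limma 0 of the genes in them passed the adjusted threshold, and the counts at an unadjusted p under 0.05 follow for each list. Over all genes, 9777 of 18193 were higher in aged cells and 8391 lower, with a median of 0.05. Factors of latency and activation were higher in 13 of 20 measured genes, with a median of 0.23, and 9 had the ages apart with aged higher against 2 with aged lower (19.9% and 16.9% over all genes). At an unadjusted p under 0.05 there were 2 higher and 0 lower (2.85% and 6.19% over all genes), but 0 higher with the replicate block or with arrays centred on their median. Ltbp1, a latent TGF-beta binding protein, stood at 0.91 ± 0.40, Itgav, the alpha v integrin that pulls on the latent complex, at 0.81 ± 0.40 and its partner Itgb8 at 2.14 ± 0.95. Thbs1, thrombospondin that can release active ligand, was at -0.96 and -0.23 in young and 1.56 and 0.23 in aged pools, a difference of 1.49 ± 0.58 (unadjusted p = 0.0449, adjusted p = 0.53 in limma, and unadjusted p = 0.0825 with the replicate block). These 4 genes had the ages apart, and aged 1 was above aged 2 in Thbs1, Itgav and Itgb8. The probe sets of Ltbp1 had both signs, at differences of 2.63, 0.65 and -0.53, so its mean rested largely on the highest. Furin, the protease that cuts the ligand precursor, stood at -0.28 ± 0.52 with overlapping ages. The other gene at that p, named after its value was seen, was Ltbp4 (1.67 ± 0.67, unadjusted p = 0.0489 in limma, 0.0516 with the replicate block and 0.203 with a variance trend). Single aged pools moved several of these values. Without aged replicate 1 Itgb8 stood at 0.76, Thbs1 at 0.82 and Ltbp4 at 2.61, and without aged replicate 2 they stood at 3.51, 2.15 and 0.73.

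Coreceptors and extracellular binders were higher in 9 of 12 genes, with a median of 0.27. The ages were apart with aged higher in 5 and with aged lower in 2 (19.9% and 16.9% over all genes). At an unadjusted p under 0.05 there were 2 higher and 1 lower (2.85% and 6.19% over all genes). Vasn, vasorin, a membrane protein that binds TGF-beta and dampens it, was named after its values were seen. It was at -0.90 and -0.79 in young 1 and young 2 and 1.67 and 1.26 in aged 1 and aged 2. Pools of the same age were close, and the difference of 2.31 ± 0.38, 4.96-fold higher, had the smallest p of all listed pathway genes (unadjusted 0.00114, adjusted p = 0.151 in limma). Its size depended on the probe sets, at 1.32 without those ending in _x_at or _s_at (unadjusted p = 0.0311) and 3.30 when its most variable probe set stood for the gene. The small proteoglycan Bgn (1.54 ± 0.50) and the secreted glycoprotein Lrg1 (-1.75 ± 0.47) were the others, also named after their values. Dcn, decorin, which sequesters the ligand and marks fibro-adipogenic progenitors, stood at 0.90 ± 0.39 and the endothelial coreceptor Eng at -0.33 ± 0.39. The probe sets of Dcn were unequal, at differences of 1.72 and 0.09. Cd109, a binder that promotes receptor turnover, stood at 0.17 ± 0.41.

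SMAD anchors, cofactors and regulators of the receptor lay the other way, with 12 of 18 lower, a median of -0.35, and 6 with the ages apart and aged lower against 2 with aged higher (16.9% and 19.9% over all genes). At an unadjusted p under 0.05 there were 0 higher and 4 lower (2.85% and 6.19% over all genes), and 1 lower without aged replicate 2. Zfyve9, the SARA protein that holds Smad2 and Smad3 at the receptor, was at 0.64 and 0.81 in young and -0.64 and -0.69 in aged pools. Its difference was -1.39 ± 0.36 (adjusted p = 0.306 in limma). The other 3, named after their values, were the adaptor Dab2 (-1.48 ± 0.53), the receptor-binding inhibitor Strap (-1.83 ± 0.60) and the kinase Map3k7 of the SMAD-independent branch (-1.10 ± 0.38). Fkbp1a, which keeps the type I receptor silent, stood at -0.94 ± 0.42 and Trim33, which binds receptor-regulated SMADs, at 0.21 ± 0.41.

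Inhibitors and ubiquitin ligases were split, with 8 of 15 higher and a median of 0.03. At an unadjusted p under 0.05 there were 0 higher and 1 lower (2.85% and 6.19% over all genes). The 1 lower was the ligase Wwp1 (-1.67 ± 0.57, named after its value). The corepressors Ski (-0.50 ± 0.58) and Skil (0.51 ± 0.46), the ligases Smurf1 (0.97 ± 0.62) and Smurf2 (-0.26 ± 1.08) and the pseudoreceptor Bambi (1.78 ± 1.27) overlapped between the ages. Bambi stood at 0.03 with aged 1 left out and at 3.52 with aged 2 left out, and its unadjusted p in limma was 0.214, or 0.0252 with the replicate block. Of the other SMADs, which serve bone morphogenetic proteins, Smad1 stood at -1.60 ± 0.77, Smad5 at -0.54 ± 0.54, the inhibitory Smad6 at -0.33 ± 0.52 and Smad9 at 0.30 ± 0.39. The Smad1 value was set by aged 2, at -2.49, against -0.24 in aged 1, and was -0.47 without aged replicate 2. The probe sets of Smad1 were unequal too, at differences of -2.67, -2.14 and 0.02.

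Known target genes were higher in 19 of 31, with a median of 0.25. At an unadjusted p under 0.05 there were 3 higher and 0 lower (2.85% and 6.19% over all genes). The ages were apart with aged higher in 6 and with aged lower in 4 (19.9% and 16.9% over all genes). The sign was the same in both numbers for 15 of 31, or 48.4%, beside 56.1% of all genes. Ccn2, the matrix protein also called CTGF, was at 0.02 and -0.02 in young and -0.42 and 1.65 in aged pools, so aged 2 alone was high. Tgfbi stood at -0.81 ± 0.84 and the collagen chain Col1a1 at 0.52 ± 0.61, both with overlapping ages. The cell cycle inhibitors induced by TGF-beta, Cdkn1a (-0.46 ± 0.36) and Cdkn2b (-1.25 ± 0.98), were not past an unadjusted p of 0.05. Myc, which TGF-beta represses in epithelial cells, was at -0.53 and -2.17 in young and 1.45 and 0.53 in aged pools, a difference of 2.34 ± 0.66 (adjusted p = 0.352 in limma). The matrix protein Postn (2.57 ± 0.82) and the transglutaminase Tgm2 (1.73 ± 0.48) were the others, named after their values. With _x_at and _s_at readings dropped, Tgm2 stood at 0.77 (unadjusted p = 0.0956 in limma), and with the replicate block the unadjusted p of Postn was 0.0611. The targets Col1a1, Col3a1 and Acta2, and Dcn of the binders, are also in the progenitor or pericyte marker lists, which were higher in aged pools. Col1a1, Col3a1 and Acta2 overlapped between the ages.

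**Figure D4:**
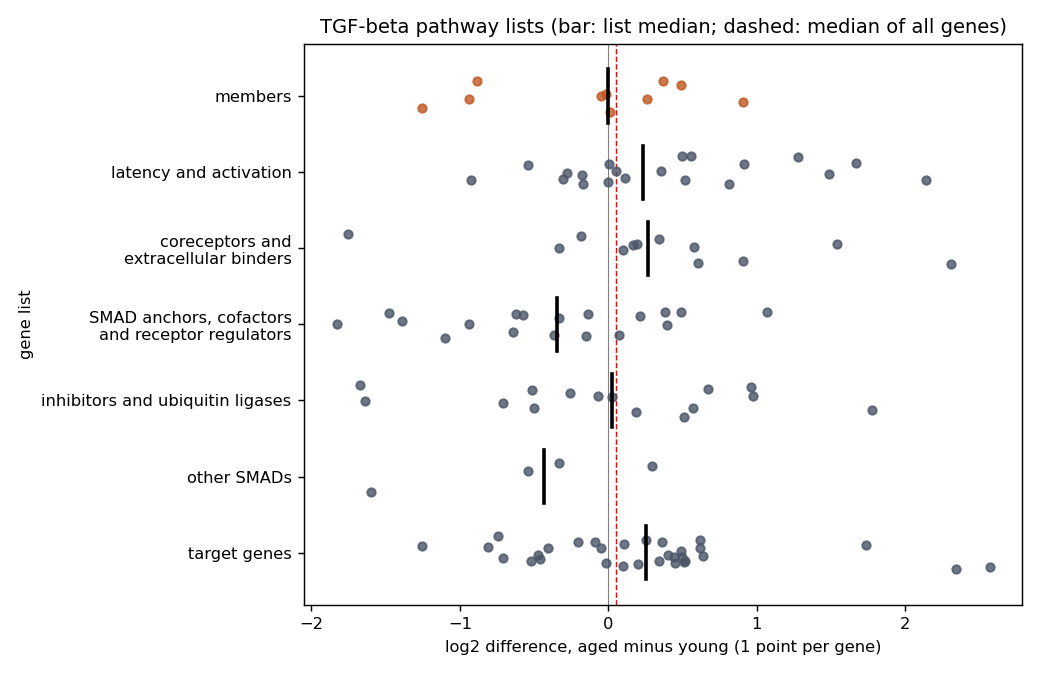
Each point is 1 gene, with its log2 difference aged minus young on the x axis; rows are the 10 members and the 6 pathway lists, black bars are list medians and the red dashed line is the median of all genes, 0.05. The members spread on both sides of 0, from Tgfb3 at -1.26 to Tgfbr2 at 0.90, while the list of SMAD anchors and cofactors has its median at -0.35 and the latency list at 0.23.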

How the data were processed

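RNA was amplified in 2 rounds by T7 and biotin-labelled, per the labels' protocols, and measured on 4 Affymetrix arrays. The authors deposited 1 table of 45101 probe sets, whose values are treated as log2. Every probe set's median over the 4 arrays is 0 within 5e-07, so a dim-probe filter could not be applied; for background correction, normalization and log base the sources used here give nothing. After 64 control probe sets were left out, 34945 of 45037 carried 1 gene symbol, 932 several and 9160 none; names were updated by Entrez ID to GRCm38.p6 (34741 matched). The listed genes Lrrc32, Fbn1, Loxl2, Pthlh, Ly6a and Lck had no probe set of a single name. The ages were compared in R 4.3.3 with limma 3.58.1 (eBayes, 2.71 prior and 2 residual degrees of freedom for probe sets), two-sided, separately over 45037 probe sets and 18193 genes, and the code was tested on simulated data. P-values rest on the spread between pools, drawn by limma toward a variance shared over all features. For genes the prior had 3.556 degrees of freedom, against 2 residual, so much of a standard error comes from other features. The number of pools limits the precision. Named list genes were the anchors of each list plus any past the adjusted threshold, which none passed; 10 further list genes at an unadjusted p under 0.05, and 5 lower satellite cell markers, were named after their values were seen. Members and lists were chosen with earlier results of these data known. Alternatives were the replicate block, quantile normalization, array centring, a variance trend, other uses of probe sets, and leaving out each pool. Figures used matplotlib 3.10.9.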

Additional observations from a re-analysis of the deposited data

How the results depend on the processing

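No setting gave a member probe set, a member gene or a listed pathway gene an adjusted p under 0.05. Over all features, limma with a variance trend called 199 probe sets and 221 genes, against 0 without it; on centred values the trend has no expression level to follow. Member probe sets at an unadjusted p under 0.05 numbered 2, and 0 to 4 when 1 pool was left out. Member genes at that p numbered 0, and 1 with arrays centred on their median (Tgfb2) and 2 without _x_at and _s_at probe sets (Smad3 and Smad7). The Smad7 value there is the reading of 1423389_at alone. With the replicate number as a block, 0 member probe sets passed the adjusted threshold and 2 the unadjusted one, Smad2 1420634_a_at (p = 0.0294) and Tgfbr2 1425444_a_at (0.0455), with Smad7 1423389_at at 0.0539; deviations of same-numbered pools correlated at 0.13 across probe sets, and 2 pairs are too few to show a pairing. The replicate block and the variance trend cannot change a difference in this design, and array centring shifts every difference by the same amount. Agreement of direction across those settings was thus largely fixed in advance. With all 4 arrays the direction held in every setting for 6 of 10 member genes, 24 of 25 member probe sets and 35 of 36 other pathway genes named. It turned with the probe set of largest SD for Tgfbr1 (-0.054), Smad2 (-0.92), Smad4 (0.62), Smad7 (-1.08) and Skil (-0.26), with arrays centred on their median for Smad7 (-0.029), and with quantile normalization for Tgfbr1 1420893_a_at (0.0029). The median of inhibitors and ubiquitin ligases turned to -0.014, -0.15 and -0.067 with arrays centred, the largest SD and without _x_at and _s_at probe sets. Leaving out 1 pool, where the lone pool of an age is assumed to vary like the others, turned some signs, with these ranges: Tgfb1 -0.50 to 0.41, Tgfbr1 -0.12 to 0.85, Smad2 -0.016 to 1.00, Smad4 -0.47 to 0.44, Smad7 -0.58 to 0.60, Tgfb1 1420653_at -1.12 to 0.51, Tgfb1 1445360_at -0.013 to 0.43, Tgfb2 1423250_a_at -0.38 to 0.52, Tgfb2 1450923_at -3.51 to 0.12, Tgfb2 1450922_a_at -1.36 to 0.36, Tgfbr1 1420893_a_at -1.13 to 1.03, Tgfbr3 1433795_at -0.045 to 0.30, Smad2 1442062_at -2.21 to 0.36, Smad3 1450472_s_at -1.79 to 0.77, Smad4 1422486_a_at -0.54 to 1.79, Smad4 1422487_at -1.19 to 0.44, Smad4 1422485_at -1.38 to 0.80, Furin -0.91 to 0.35, Cd109 -0.18 to 0.52, Trim33 -0.14 to 0.56, Ski -1.19 to 0.19, Smurf2 -1.68 to 1.16, Smad5 -1.19 to 0.11, Smad6 -0.83 to 0.17, Ccn2 -0.42 to 1.65, Tgfbi -1.87 to 0.25, Col1a1 -0.27 to 1.30, Cdkn2b -2.76 to 0.25, the median of inhibitors and ubiquitin ligases -0.16 to 0.19. The cause was not tested. Counts at an unadjusted p under 0.05 moved too: over the settings with all 4 arrays, then over those without 1 pool, latency genes higher numbered 0 to 3 and 0 to 4, binders higher 2 to 4 and 1 to 2, SMAD anchors and cofactors lower 3 to 5 and 1 to 4, inhibitors and ligases lower 1 to 2 and 0 to 2, and target genes higher 2 to 6 and 1 to 3. A filter on dim probe sets was not run, since centred values hold no level, and signal over background is not known here.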

Other observations

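The array that stood out differed between member probe sets, also within a gene. Young 1 was the highest array, above 1, on Tgfb1 1420653_at (1.12), Smad2 1442062_at (1.06), Smad4 1422485_at (1.38) and Smad7 1443771_x_at (1.86). Aged 1 was the lowest array, below -1, on Tgfb2 1438303_at (-2.01) and 1450922_a_at (-1.22), Smad3 1450472_s_at (-1.79) and 1454960_at (-1.38) and Smad4 1422487_at (-1.18). Aged 2 was below -1 on Tgfb2 1450923_at (-3.47), Smad2 1442062_at (-1.98) and Smad3 1450471_at (-1.82). The same arrays also stood at the other end: young 1 was lowest on Tgfbr1 1420893_a_at (-1.03), aged 1 highest on Tgfbr2 1425444_a_at (3.07) and Smad4 1422486_a_at (1.79), and aged 2 highest on Smad2 1420634_a_at (1.51). Young 2 was highest on Tgfb3 1417455_at (2.13) and Tgfbr1 1420893_a_at (1.13) and lowest on Tgfbr2 1426397_at (-1.20) and Smad2 1420634_a_at (-1.02). These probe sets were picked after their values were seen, and no test was made of them.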
